A study of Homo sapiens with 8 samples.

Results

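The clustered protocadherins are adhesion proteins of neurons, and the protein-coding *PCDHA* and *PCDHG* genes form 2 clusters on the long arm of chromosome 5, with the *PCDHB* genes between them. They were chosen by position and name, as the protein-coding genes within the cluster region of chromosome 5 (GRCh37) whose symbol starts with *PCDHA* or *PCDHG*. This gave 37 of 20175 protein-coding genes of GENCODE release 44: 13 alternate *PCDHA* genes, 2 C-type *PCDHA* genes (*PCDHAC1* and *PCDHAC2*), 12 *PCDHGA* genes, 7 *PCDHGB* genes and 3 C-type *PCDHG* genes (*PCDHGC3*, *PCDHGC4* and *PCDHGC5*). All lie on the plus strand, from the TSS of *PCDHA1* at 140165725 to that of *PCDHGC5* at 140868648. MBD-seq was done on 8 neuroblastoma (NB) cell lines, established cultures of tumor cells. CHP-902R, IMR-32, LA-N-2 and N206 have *MYCN* amplification (MNA), and SK-N-AS, SJNB-1, CLB-GA and SH-SY5Y are *MYCN* single copy. Fragments of sheared DNA that carry methylated CpG were enriched with the binding domain of MBD2, and stretches where the sequenced fragments pile up were called as peaks in each line separately. Each line is 1 sample, so the spread given is between lines and there is no replicate of a line. The peak lists held 70816 (SJNB-1) to 112412 peaks (LA-N-2) without read counts. The study states its sequencing depth as a range and not for each line, so that depth was not compared between lines here, and a missing peak means only that none was called.

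Each alternate clustered protocadherin gene has a promoter of its own and 1 large variable exon, which encodes the extracellular cadherin repeats, the membrane span and the first part of the cytoplasmic tail. This exon is spliced to 3 constant exons shared by the whole *PCDHA* or the whole *PCDHG* cluster. In neurons a small set of alternate promoters is chosen in each cell, so that cells differ in their surface proteins, whereas the C-type genes are used more uniformly. Promoter choice is known to involve CTCF and cohesin, and DNA methylation of the promoters and first exons is known to accompany silencing. Because the constant exons cannot be assigned to 1 gene, only the first exon and a promoter window of -1500 to +1000 bp around the canonical TSS were read. The first exons were 2355 to 3027 bp long.

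The following stretches of first exons show where the peaks lay and where they did not, as read from the GRCh37 reference and with each CpG in capitals. In *PCDHA4* the stretch from +200 to +399 of the TSS held 18 CpG and was under a peak in 0 lines, and the stretch from +1700 to +1899 of the same exon held 19 CpG and was wholly under a peak in 8 lines.

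PCDHA4 (chr5:140186853-140187052, plus strand): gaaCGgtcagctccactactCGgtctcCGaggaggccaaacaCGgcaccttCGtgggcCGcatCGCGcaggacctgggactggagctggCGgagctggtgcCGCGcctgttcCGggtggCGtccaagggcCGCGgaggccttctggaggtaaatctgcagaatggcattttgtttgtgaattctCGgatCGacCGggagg

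PCDHA4 (chr5:140188353-140188552, plus strand): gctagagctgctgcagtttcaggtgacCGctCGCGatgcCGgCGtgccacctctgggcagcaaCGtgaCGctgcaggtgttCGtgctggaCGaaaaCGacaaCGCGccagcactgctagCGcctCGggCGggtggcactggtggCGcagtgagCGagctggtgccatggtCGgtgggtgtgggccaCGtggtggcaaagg

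The next 4 stretches lie at the same distance from the TSS, +1700 to +1899, in *PCDHG* genes. *PCDHGA12*, with 14 CpG, and *PCDHGB3*, with 22 CpG, were under a peak in 8 lines. *PCDHGA9*, with 1 CpG, was under a peak in 0 lines. *PCDHGB2*, with 24 CpG, was under a peak only in N206. Windows of 45 bp, the read length, that touch the stretch occurred once in GRCh37 for each window in *PCDHGB3* and *PCDHGA9*. They did so for 98.0% of them in *PCDHGA12* and for 55.3% in *PCDHGB2*, so single reads of the *PCDHGB2* stretch can match other places as well. Reads were sequenced in pairs, and these shares of single windows do not count pairs placed by their other read.

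PCDHGA12 (chr5:140811774-140811973, plus strand): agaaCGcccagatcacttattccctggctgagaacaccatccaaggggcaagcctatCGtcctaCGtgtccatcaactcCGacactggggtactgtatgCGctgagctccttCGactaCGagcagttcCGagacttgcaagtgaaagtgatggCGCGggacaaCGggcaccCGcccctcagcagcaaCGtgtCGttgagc

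PCDHGB3 (chr5:140751509-140751708, plus strand): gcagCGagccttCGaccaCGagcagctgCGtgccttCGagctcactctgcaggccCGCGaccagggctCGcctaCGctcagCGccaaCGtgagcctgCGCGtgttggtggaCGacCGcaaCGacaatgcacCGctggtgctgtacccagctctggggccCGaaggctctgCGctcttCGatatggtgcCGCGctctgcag

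PCDHGA9 (chr5:140784045-140784244, plus strand): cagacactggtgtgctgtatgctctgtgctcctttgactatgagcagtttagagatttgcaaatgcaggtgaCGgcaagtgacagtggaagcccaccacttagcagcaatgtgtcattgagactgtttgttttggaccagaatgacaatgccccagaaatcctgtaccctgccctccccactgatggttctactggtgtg

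PCDHGB2 (chr5:140741261-140741460, plus strand): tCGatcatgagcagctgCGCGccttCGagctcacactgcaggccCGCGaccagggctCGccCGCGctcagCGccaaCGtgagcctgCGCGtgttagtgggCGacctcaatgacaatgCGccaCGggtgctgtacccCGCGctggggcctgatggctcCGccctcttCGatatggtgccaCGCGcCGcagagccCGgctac

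The C-type gene *PCDHAC2* was covered nearer to its TSS. Its stretch from +1100 to +1299 held 6 CpG and was under a peak in 8 lines.

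PCDHAC2 (chr5:140347161-140347360, plus strand): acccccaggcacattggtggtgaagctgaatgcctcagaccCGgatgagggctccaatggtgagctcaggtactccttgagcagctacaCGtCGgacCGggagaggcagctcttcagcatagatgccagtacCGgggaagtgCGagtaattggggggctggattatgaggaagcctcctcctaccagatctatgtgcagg

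The last 100 bases before the TSS are shown for 4 genes, with the letters CGCT, or AGCG for the other strand, in capitals. CGCT is the core of a conserved element of most alternate protocadherin promoters. It occurred on either strand within 300 bp upstream of the TSS in 35 of the 37 genes (94.6%), all but *PCDHA9* and *PCDHGC5*, and in 79.3% of all protein-coding genes. A match is a description of the letters and not of a bound site. The *PCDHA4* and *PCDHGB3* stretches were under a peak in 0 lines, the *PCDHGA12* stretch was touched by a peak in LA-N-2 and SH-SY5Y, and the *PCDHGC3* stretch was under a peak in IMR-32 and LA-N-2.

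PCDHA4 (chr5:140186553-140186652, plus strand): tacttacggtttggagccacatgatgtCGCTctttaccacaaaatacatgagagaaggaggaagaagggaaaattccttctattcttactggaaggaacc

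PCDHGB3 (chr5:140749709-140749808, plus strand): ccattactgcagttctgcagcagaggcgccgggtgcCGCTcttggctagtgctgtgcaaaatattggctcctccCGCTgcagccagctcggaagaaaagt

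PCDHGA12 (chr5:140809974-140810073, plus strand): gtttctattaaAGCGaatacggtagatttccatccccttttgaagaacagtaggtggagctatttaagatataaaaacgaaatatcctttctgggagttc

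PCDHGC3 (chr5:140855433-140855532, plus strand): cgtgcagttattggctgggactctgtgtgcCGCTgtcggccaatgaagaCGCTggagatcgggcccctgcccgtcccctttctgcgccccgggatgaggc

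First exons of the *PCDHA* and *PCDHG* genes carried peaks in most lines. A peak on the first exon, overlapping it by at least 1 bp, was found in 31 of the 37 genes in CHP-902R, 32 in IMR-32, 34 in LA-N-2, 32 in N206, 27 in SK-N-AS, 34 in CLB-GA, 32 in SJNB-1 and 34 in SH-SY5Y. The mean was 32.0 ± 2.33 genes (SD, n = 8), and SK-N-AS was the lowest line. Over all protein-coding genes, the share with a first-exon peak was 5.51% in CHP-902R, 7.62% in IMR-32, 6.28% in LA-N-2, 4.34% in N206, 4.61% in SK-N-AS, 4.74% in CLB-GA, 4.54% in SJNB-1 and 6.3% in SH-SY5Y. At least 1 line had a first-exon peak in 36 of the 37 genes, against 16.0% of all protein-coding genes and 70.8% of the 465 protein-coding genes whose first exon is at least 2000 bp long. All 8 lines had one in 22 of the 37 genes, against 0.694% of all protein-coding genes and 14.8% of those with a long first exon. This count depended on the score: with scores of at least 100 it was 9 of the 37 genes, against 0.139% of all protein-coding genes and 4.52% of those with a long first exon, and the mean number of genes per line was 20. Without a score limit, 16 of the 16 protein-coding *PCDHB* genes had a first-exon peak in at least 1 line, and 7 (43.8%) in all 8. By cluster, all 8 lines had one in 14 of the 15 *PCDHA* genes (93.3%) and in 8 of the 22 *PCDHG* genes (36.4%). Peaks on first exons were thus not particular to the *PCDHA* and *PCDHG* genes.

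In the promoter window, the number of genes with a peak was 15 in CHP-902R, 16 in IMR-32, 17 in LA-N-2, 15 in N206, 11 in SK-N-AS, 20 in CLB-GA, 16 in SJNB-1 and 12 in SH-SY5Y, with a mean of 15.2 ± 2.82 genes (SD, n = 8). CLB-GA was highest and SK-N-AS lowest. The share of all protein-coding genes with a promoter peak was 15.9% in CHP-902R, 21.1% in IMR-32, 17.0% in LA-N-2, 14.9% in N206, 14.4% in SK-N-AS, 14.6% in CLB-GA, 14.3% in SJNB-1 and 17.9% in SH-SY5Y. Among genes with a long first exon it was 26.9% to 42.2%, and 3 lines were close to it, with 43.2% of the 37 genes against 42.2% in IMR-32, 32.4% against 32.0% in SH-SY5Y and 29.7% against 27.1% in SK-N-AS. At least 1 line had a promoter peak in 34 of the 37 genes (48.9% of all protein-coding genes, 69.0% of those with a long first exon). All 8 lines had one in 1 gene, *PCDHGA6*, against 0.957% of all protein-coding genes. Among genes with a long first exon this share was 3.87%. No line had a promoter peak in 3 of the 37 genes, *PCDHGA3*, *PCDHGB3* and *PCDHGA9* (51.1% of all protein-coding genes). No line had a first-exon peak in 1 gene, *PCDHGA9* (84.0% and 29.2%).

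**Figure D1:**
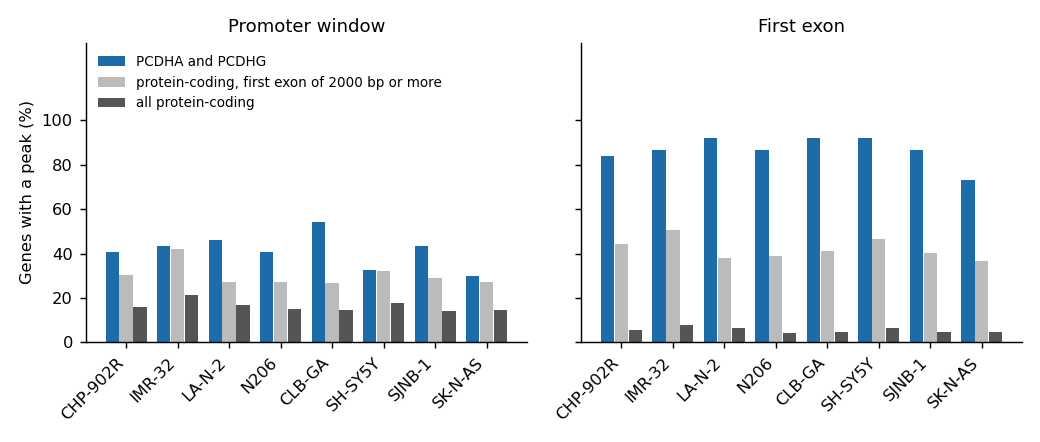
Percentage of genes with a peak in the promoter window (left) and on the first exon (right), for each line, with 1 bar each for the 37 *PCDHA* and *PCDHG* genes, the 465 protein-coding genes with a first exon of 2000 bp or more and all 20175 protein-coding genes. The *PCDHA* and *PCDHG* bars lie between 73.0% and 91.9% for the first exon and between 29.7% and 54.1% for the promoter window.

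The peaks within the promoter window lay mostly inside the first exon. Of 129 peaks in these windows over the 8 lines, 115 overlapped the gene's own first exon, and 89 of these started downstream of the TSS. Only 26 covered the TSS itself. The other 14 lay on the first exon of the gene before: the windows of *PCDHGA6* reached the peak on *PCDHGB3* in 8 lines, and those of *PCDHGA11* the peak on *PCDHGB7* in 6 lines. When such peaks were not counted, the number of genes with a promoter peak in each of the 8 lines was 0. The number of genes with a peak over the TSS was 2 in CHP-902R, 5 in IMR-32, 7 in LA-N-2, 0 in N206, 2 in SK-N-AS, 4 in CLB-GA, 4 in SJNB-1 and 2 in SH-SY5Y. As a share of the genes this was 0 to 18.9%, and over all protein-coding genes it was 2.46% to 4.8%. *PCDHGA5* had a TSS peak in 5 lines, *PCDHA6* in 3 lines, and 13 other genes in 1 or 2 lines.

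Along the genes, cover by peaks was low at the TSS and rose into the first exon. From 800 to 501 bp upstream of the TSS no base was under a peak in any line. The bins of this stretch had few CpG to capture, with means of 0.97, 0.54 and 0.59 per 100 bp. The share of bases under peaks was highest in the bin from +1900 to +1999, with a mean of 75.1% over the lines (68.4% to 86.5%). CpG were dense at 2 places, after the TSS and again near this maximum. From +200 to +499 the genes had 7.02 CpG per 100 bp, and 17.9% ± 6.63 of the bases (SD, n = 8; 8.34% to 27.4%) were under peaks, with a peak in 4 to 12 genes depending on the line. From +1500 to +1799 they had 7.98 CpG per 100 bp, and 72.9% ± 6.59 of the bases (62.8% to 86.0%) were under peaks, with a peak in 26 to 33 genes. The lowest line for the second stretch was thus above the highest line for the first. The pooled CpG content averages unlike subfamilies. From the first to the second stretch it rose from 7.77 to 13.1 per 100 bp in the alternate *PCDHA* and from 6.24 to 9.71 in the *PCDHGB* genes. It fell from 6.81 to 3.42 in the *PCDHGA*, from 10.5 to 3 in the C-type *PCDHA* and from 4.11 to 3.22 in the C-type *PCDHG* genes. These short stretches do not stand for the whole exon. Divided at the midpoint of the exon, the *PCDHGA* genes had a median of 4.34 CpG per 100 bp upstream and 5.47 downstream. In 15 genes the stretch near the TSS had at least as many CpG as the one farther in, and of these the farther stretch was the more covered in 10 genes, the nearer one in 3, with equal cover in 2.

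**Figure D2:**
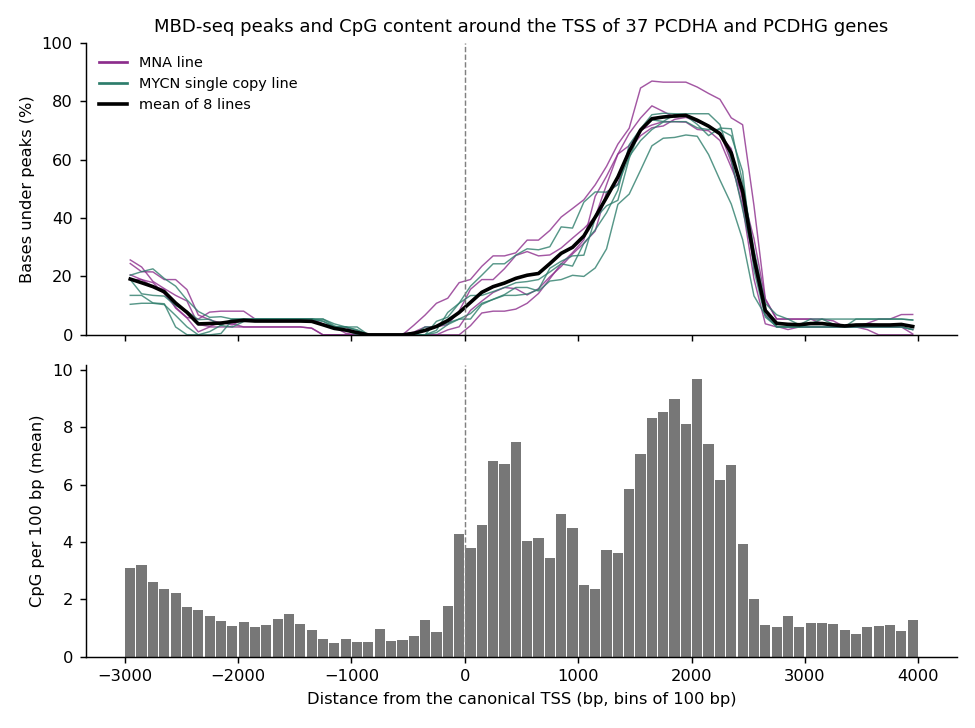
Percentage of bases under peaks (top, thin lines for the 8 NB cell lines by *MYCN* status, thick line for their mean) and mean CpG per 100 bp (bottom) in bins of 100 bp around the canonical TSS of the 37 genes. Cover is 0 in all lines from 800 to 501 bp upstream of the TSS, where CpG are sparse, and reaches 75.1% on average at +1900 to +1999. CpG, as a mean over unlike subfamilies, are dense both after the TSS and around the maximum of cover.

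The same contrast appeared when each first exon was divided at its midpoint. The upstream part, from the TSS to the midpoint, was under peaks over 24.6% ± 6.55 of its bases (SD, n = 8; 16.8% to 35.4%), and the downstream part over 64.9% ± 6.54 (53.5% to 77.8%). The downstream part was also richer in CpG, with a median over the 37 genes of 6.44 per 100 bp against 4.27 upstream. The downstream part was the more covered in 8 of 8 lines and, on the mean over the lines, in 32 of the 37 genes. *PCDHAC1*, *PCDHAC2*, *PCDHGA10* and *PCDHGC4* had more cover upstream of the midpoint, and *PCDHGA9* had none on either side. Genes were not counted this way in the other sets, for which cover is given over the bases of all genes together. In the protein-coding genes with a long first exon the means were 15.2% upstream and 11.1% downstream, and the downstream part was above in 0 of 8 lines. In the 16 protein-coding *PCDHB* genes, the neighbouring family without constant exons, they were 24.4% and 17.6%, with the downstream part above in 1 line. The first exons of the *PCDHB* genes are 1300 to 7973 bp long, however, so that their midpoints lie at other distances from the TSS. By distance the *PCDHB* genes had the same order as the *PCDHA* and *PCDHG* genes, with 5.85% ± 6.35 of the bases under peaks from +200 to +499 and 62.2% ± 16.1 from +1500 to +1799 (SD, n = 8), and with 2.96 and 8.15 CpG per 100 bp.

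The 13 alternate *PCDHA* genes each had a first-exon peak in 8 of 8 lines. Their first exons were covered over 62.2% ± 5.11 of the bases (SD, n = 8), with 30.5% upstream and 93.8% downstream of the midpoint. CpG followed the same division, with a median over the genes of 4.19 per 100 bp upstream and 9.90 downstream. Each of the 13 had a stretch that was under a peak in all 8 lines, and such a stretch was found in 18 of the 37 genes in all, 247 to 1360 bp long with a median of 789 bp. The longest lay in *PCDHA12*, at chr5:140256065-140257424, and reached the end of the first exon. The 5 genes outside this subfamily with such a stretch were *PCDHAC2*, *PCDHGA1*, *PCDHGA5*, *PCDHGB3* and *PCDHGA12*. Shared stretches were not computed for other genes. They need a first-exon peak in all 8 lines, which 0.694% of all protein-coding genes had. That share was 14.8% of those with a long first exon and 43.8% of the *PCDHB* genes.

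The 3 highest scores on a first exon all belonged to alternate *PCDHA* genes. The score, which the authors' peak caller derives from the p-value of a peak and which ranks peaks within 1 list only, was 404.7 for *PCDHA12* in LA-N-2 (peak from +1075 to +2615), 357.1 for *PCDHA7* in SJNB-1 (from +967 to +2257) and 341.7 for *PCDHA1* in SJNB-1 (from +1140 to +2492). Each stood above 99.9% of the peaks of its list. For *PCDHA12*, the share of the first exon under peaks was 56.1% in CHP-902R, 55.0% in IMR-32, 57.5% in LA-N-2, 56.4% in N206, 59.6% in SK-N-AS, the whole exon in CLB-GA, 89.9% in SJNB-1 and 55.9% in SH-SY5Y. Thus 6 lines lay close together, and CLB-GA and SJNB-1, whose peaks also reached the TSS, stood above them.

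The cover of *PCDHA6*, which the study also assayed by methylation-specific PCR, varied between lines. It was 90.4% in CHP-902R, the whole exon in IMR-32, 67.8% in LA-N-2, 57.3% in N206, 28.1% in SK-N-AS, 92.5% in CLB-GA, 78.5% in SJNB-1 and 69.3% in SH-SY5Y. SK-N-AS was lowest, with a single peak from +1733 to +2436. The promoter window of *PCDHA6* held a peak in all lines but N206 and SK-N-AS, and the TSS was under a peak in IMR-32, CLB-GA and SJNB-1. Over the TSS the CLB-GA and SJNB-1 peaks had scores of 51.2 and 50.5, near the lowest score of 50 in each list. Of the 45 bp windows of this first exon, 64.0% were unique in GRCh37, and the 4 genes from *PCDHA6* to *PCDHA9* had the lowest such shares of all 37, at 63.8% to 68.3%. Which reads of these exons were kept depends on how Bowtie treated reads with several matches, which is not given in the sources used here.

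*PCDHA3*, *PCDHA7* and *PCDHA11* also had a promoter peak in 6 of 8 lines. In *PCDHA7* the peaks reached only the downstream edge of the promoter window. In the 6 lines they began at +868 to +972, and in IMR-32 and SK-N-AS, which had none, the peak began at +1507 and +1302. The annotated TSS of *PCDHA7* is its first coding base, and its first exon of 2355 bp is the shortest of the 37. A TSS farther upstream could leave these starts outside the window, so the calls in 6 lines rest on this annotation. In *PCDHA11* the peak began at +56 in SH-SY5Y, and at +1058 and +1094 in N206 and CLB-GA, the lines without a promoter peak. In *PCDHA3* it began at -163 in CHP-902R and at +163 in LA-N-2, and at +1410 in SH-SY5Y and +1189 in SK-N-AS, which had no promoter peak.

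**Figure D3:**
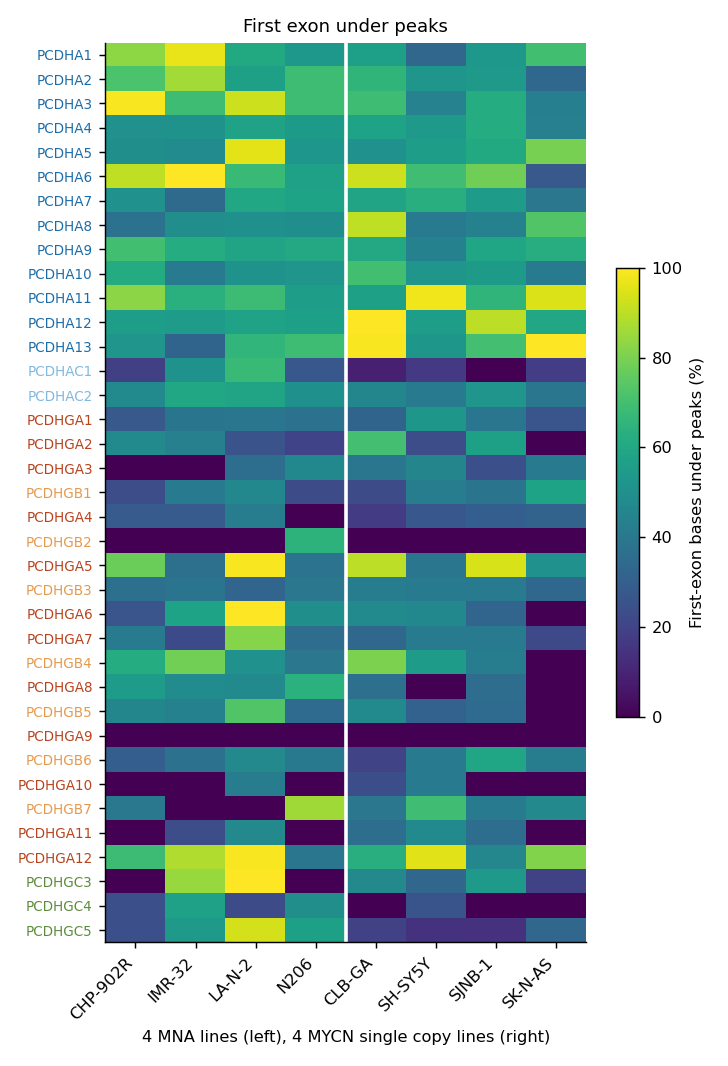
Percentage of first-exon bases under peaks for each of the 37 genes (rows in chromosome order, symbols coloured by subfamily) in each NB cell line (columns, MNA left of the white line and *MYCN* single copy right). The alternate *PCDHA* rows are covered in each of the 8 lines, *PCDHGA9* in 0 lines and *PCDHGB2* in N206 only.

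On the first exons of the C-type *PCDHA* genes the peaks had a median start of +662.5, against +1052 for the alternate *PCDHA* genes. In *PCDHAC2* the first peak of each line started between -326 (LA-N-2) and +1035 (CHP-902R), N206 had a second from +1844 to +2146, and 7 lines had a promoter peak, all but CHP-902R. Its first exon was covered over 48.0% in CHP-902R, 59.6% in IMR-32, 58.5% in LA-N-2, 50.0% in N206, 39.1% in SK-N-AS, 45.9% in CLB-GA, 52.3% in SJNB-1 and 40.7% in SH-SY5Y, a narrow range in which the *MYCN* groups overlapped. In *PCDHAC1* the cover was 19.1% in CHP-902R, 51.0% in IMR-32, 67.3% in LA-N-2, 27.2% in N206, 18.3% in SK-N-AS, 8.72% in CLB-GA, 0 in SJNB-1 and 17.1% in SH-SY5Y. The 4 MNA lines were all above the 4 single copy lines, although CHP-902R exceeded SK-N-AS by less than the spread within either group. For these 2 genes CpG were denser upstream of the midpoint, with 7.70 per 100 bp, than downstream, with 1.86 (medians over the genes), and cover was 48.2% upstream and 26.5% downstream. All 45 bp windows of their first exons were unique.

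The *PCDHGA* genes were covered over 35.4% ± 10.1 of their first-exon bases (SD, n = 8), with 20.6% upstream and 50.2% downstream of the midpoint. *PCDHGA1*, *PCDHGA5*, *PCDHGA7* and *PCDHGA12* had a first-exon peak in 8 lines, *PCDHGA2*, *PCDHGA4* and *PCDHGA6* in 7, *PCDHGA3* and *PCDHGA8* in 6, *PCDHGA11* in 5, *PCDHGA10* in 3 and *PCDHGA9* in 0. In *PCDHGA12* the cover was 68.5% in CHP-902R, 88.3% in IMR-32, 98.9% in LA-N-2, 39.4% in N206, 81.1% in SK-N-AS, 62.8% in CLB-GA, 46.2% in SJNB-1 and 95.4% in SH-SY5Y. It had a promoter peak in 6 lines, all but N206 and SJNB-1, the lines of the lowest cover. *PCDHGA5* had a peak at the TSS and another in the downstream part in CHP-902R, IMR-32, LA-N-2, CLB-GA and SJNB-1, whereas in N206, SH-SY5Y and SK-N-AS it had only a peak that began at +1283 or later. In *PCDHGA6* the cover was 26.6% in CHP-902R, 57.9% in IMR-32, the whole exon in LA-N-2, 50.0% in N206, 0 in SK-N-AS, 47.8% in CLB-GA, 32.6% in SJNB-1 and 46.6% in SH-SY5Y. Its own peak reached the promoter window only in LA-N-2, the line of the highest cover. *PCDHGA11* had a peak of its own in the promoter window in CLB-GA (+23 to +968) and SH-SY5Y (-401 to +1233), and peaks farther downstream in IMR-32, LA-N-2 and SJNB-1.

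*PCDHGA9*, without a peak in any line, had 2.08 CpG per 100 bp downstream of the midpoint, against a median of 5.47 for the *PCDHGA* genes, and 98.0% of its 45 bp windows were unique. *PCDHGA10* had 5.56 CpG per 100 bp there and 87.2% unique windows, and its peaks lay upstream in CLB-GA (+521 to +1154) and SH-SY5Y (+75 to +1141) and downstream in LA-N-2 (+1513 to +2631). *PCDHGA3* had 6 peaks, which all began at +1401 or later and so outside its promoter window.

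The *PCDHGB* genes were covered over 36.2% ± 5.96 (SD, n = 8), with 11.3% upstream and 61.2% downstream of the midpoint. *PCDHGB1*, *PCDHGB3* and *PCDHGB6* had a first-exon peak in 8 lines, *PCDHGB4* and *PCDHGB5* in all but SK-N-AS, and *PCDHGB7* in all but IMR-32 and LA-N-2. *PCDHGB3* was the most uniform, with cover of 36.8% in CHP-902R, 38.7% in IMR-32, 32.4% in LA-N-2, 39.7% in N206, 33.4% in SK-N-AS, 41.9% in CLB-GA, 41.1% in SJNB-1 and 41.3% in SH-SY5Y. Its peaks started at +1341 to +1561, so that none reached its own promoter window. In *PCDHGB2* the cover was 64.8% in N206, with 1 peak from +609 to +2269 and a score of 68.6, and 0 in the other 7 lines. Its downstream part held 6.71 CpG per 100 bp, above the median of 6.44 for the *PCDHGB* genes. Of the 45 bp windows, 87.8% were unique over its whole first exon, but only 55.3% of those that touch +1700 to +1899.

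Of the subfamilies, the C-type *PCDHG* genes had the widest spread of pooled cover between lines, with a mean of 34.5% ± 21.9 (SD, n = 8). This pools only 3 genes, and pooling over more genes can narrow the spread. Single genes of other subfamilies ranged as widely, such as *PCDHGA6*, from 0 to 100%. In *PCDHGC3* a peak covered the TSS in IMR-32 (-435 to +2181) and LA-N-2 (-478 to +2615). There was no peak in CHP-902R and N206, and in the 4 single copy lines the peaks began at +1182 or later. Its cover was 0 in CHP-902R, 84.5% in IMR-32, the whole exon in LA-N-2, 0 in N206, 19.4% in SK-N-AS, 47.0% in CLB-GA, 54.2% in SJNB-1 and 33.0% in SH-SY5Y, so that the MNA lines held both the highest and the lowest values. *PCDHGC4* was covered over 24.3% in CHP-902R, 57.0% in IMR-32, 22.7% in LA-N-2, 49.5% in N206, 25.8% in SH-SY5Y and 0 in CLB-GA, SJNB-1 and SK-N-AS. *PCDHGC5* had a first-exon peak in 8 lines, with cover of 24.4% in CHP-902R, 54.1% in IMR-32, 93.5% in LA-N-2, 56.8% in N206, 33.1% in SK-N-AS, 19.6% in CLB-GA, 14.2% in SJNB-1 and 14.7% in SH-SY5Y, and CHP-902R lay within the range of the single copy lines. In 7 lines its peak ran past the end of the exon, to +2732 in CHP-902R and to between +3565 and +3986 in the other 6.

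By presence or absence of a first-exon peak, *PCDHAC2* and *PCDHGC5* each had the same call in all 8 lines as 21 other genes, those with a peak in every line. *PCDHAC1*, *PCDHGC3* and *PCDHGC4* shared their pattern over the 8 lines with 0 others.

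Cover rose with CpG content from gene to gene. Over the 37 genes, mean cover and CpG per 100 bp of the first exon had Pearson's r = 0.753 and Spearman's rho = 0.746, and for the part downstream of the midpoint 0.814 and 0.833. Upstream of the midpoint they were 0.483 and 0.462. These correlations are across genes that share libraries and sequence, not independent replicates, and capture of methylated DNA is known to recover CpG-dense fragments more easily. They also pool unlike subfamilies, and the relation within each subfamily was not computed. Downstream of the midpoint, median CpG per 100 bp and mean cover were 9.90 and 93.8% for the alternate *PCDHA* genes. They were 6.44 and 61.2% for the *PCDHGB* and 5.47 and 50.2% for the *PCDHGA* genes. Cover and the share of unique windows had r = -0.337 and rho = -0.244. Base by base, first-exon bases under a peak in 0 lines (19.7% of the bases) had 3.36 CpG per 100 bp, those in 7 lines 8.27, and those in 8 lines (15.5% of the bases) 10.1. Between these the rise was not steady, with 4.54, 4.80, 3.93, 4.60, 5.06 and 5.47 for bases in 1, 2, 3, 4, 5 and 6 lines.

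**Figure D4:**
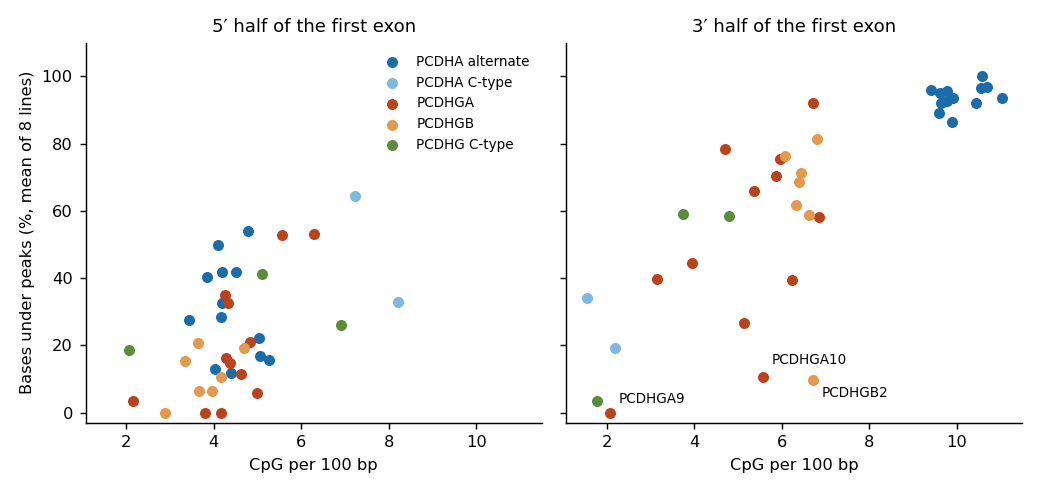
Mean percentage of bases under peaks over the 8 lines against CpG per 100 bp, for the part of the first exon upstream (left) and downstream (right) of its midpoint, with 1 point per gene coloured by subfamily. The alternate *PCDHA* genes form a group of high CpG content and cover on the right, and *PCDHGB2* and *PCDHGA10* have little cover at a CpG content where other *PCDHG* genes have more.

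The study asked whether methylation differs with *MYCN* status, and for these genes no presence of a peak separated the groups when all 8 lines were used. The mean number of genes with a first-exon peak was 32.2 ± 1.26 for MNA and 31.8 ± 3.30 for *MYCN* single copy (SD, n = 4 each), and with a promoter peak 15.8 ± 0.957 and 14.8 ± 4.11. With all 8 lines both differences were within the spread between lines (pooled SD, 2.5 and 2.99 genes). They rested on single lines: without CLB-GA the promoter difference was 2.75 genes, more than its pooled SD of 1.99. Without SK-N-AS both changed sign, to -0.25 for the promoter and -1.08 for the first exon, and without LA-N-2 the first-exon difference was -0.083. A promoter peak in all 4 MNA and no single copy line was found in 0 of the 37 genes (background over all protein-coding genes 0.0793%), and the reverse in 0 (0.0496%). For the first exon both counts were 0 as well (0.0297% and 0.0198%). A single gene separated the groups without CHP-902R (the promoter of *PCDHAC1*), without SH-SY5Y (the promoter and the first exon of *PCDHGC4*) and when a peak was placed by its midpoint (the promoter of *PCDHGC4*). The smallest p among the 37 genes was 0.143 in two-sided Fisher's exact tests, for the promoter peak of *PCDHAC1* (3 MNA lines, 0 single copy lines) and for the promoter and first-exon peaks of *PCDHGC4* (4 MNA lines, 1 single copy line), each with a Benjamini-Hochberg adjusted p of 1. Over all 20175 protein-coding genes, 26 promoters and 10 first exons had an unadjusted p under 0.05 in the exact test, and 0 passed after adjustment, since 4 lines against 4 allow no p below 0.0286.

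As a graded measure, the share of first-exon bases under peaks was 47.1% ± 6.56 in MNA and 42.3% ± 5.33 in single copy lines over the 37 genes (SD, n = 4 each). The MNA lists were also longer, with 88496 to 112412 peaks against 70816 to 86079, so that *MYCN* status and list length cannot be told apart. In 3 of the 36 genes with a first-exon peak each MNA line had more cover than each single copy line (0.59% of the 3223 protein-coding genes tested), and in 0 less (0.186%). These shares are from unlike sets, since a gene with a peak in fewer than 4 lines cannot separate the groups. A first-exon peak in all 8 lines was found in 22 of the 36 genes but in only 140 of the 3223. *PCDHA3* had 82.3% ± 15.8 against 54.6% ± 12.7, *PCDHAC1* 41.1% ± 22.1 against 11.0% ± 8.48, and *PCDHGA8* 53.5% ± 7.57 against 18.2% ± 21.0 (SD, n = 4 each). The exact permutation test, two-sided, gave p = 0.0286 for each, which 4 lines against 4 cannot go below, and an adjusted p of 1. In *PCDHA3* the gap was small, with 68.84% in N206 as the lowest MNA value and 68.76% in CLB-GA as the highest single copy value. In *PCDHGA8* the single copy lines had 36.9% in CLB-GA, 35.9% in SJNB-1 and no peak in the other 2, and the MNA lines 47.3% to 63.8%.

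Of the other C-type genes, *PCDHGC5* had 57.2% ± 28.3 in MNA and 20.4% ± 8.79 in single copy lines (SD, n = 4 each; two-sided exact permutation test, p = 0.0571, adjusted p = 1), and *PCDHGC4* 38.4% ± 17.5 and 6.46% ± 12.9 (p = 0.0857, adjusted p = 1, same exact test). *PCDHGC3* had 46.1% ± 53.6 and 38.4% ± 15.4 (p = 0.8, same exact test), and *PCDHAC2* 54.0% ± 5.86 and 44.5% ± 5.95 (p = 0.114, same exact test). Over the 36 genes, cover was higher in MNA lines in 17 and lower in 18, with a median difference of -0.384 percentage points. Over all 3223 genes it was higher in 1874 and lower in 1141, with a median of 4.88 percentage points.

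**Figure D5:**
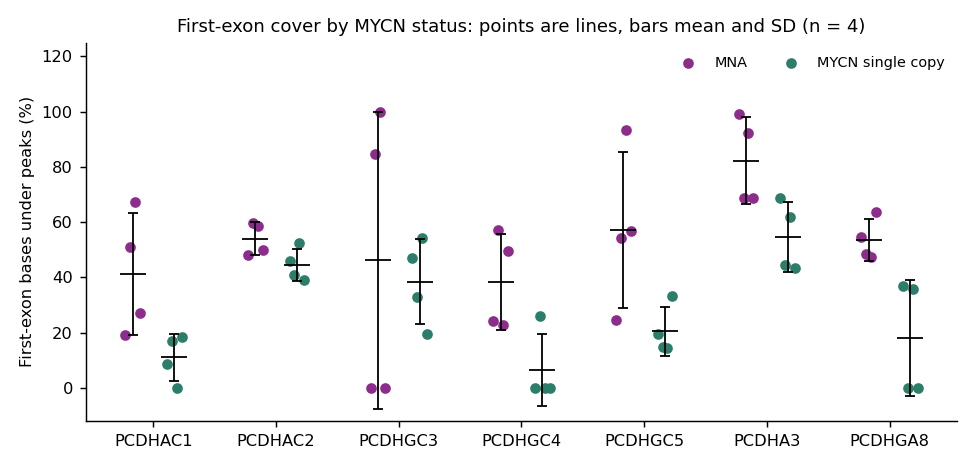
Percentage of first-exon bases under peaks in each MNA (purple) and *MYCN* single copy line (green) for the 5 C-type genes, *PCDHA3* and *PCDHGA8*, with horizontal bars for the mean and error bars for the SD (n = 4 lines). The groups do not overlap in *PCDHAC1*, *PCDHA3* and *PCDHGA8* and overlap in the other 4 genes.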

How the data were processed

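MBD-seq peak lists of 8 NB cell lines, 1 sample each, were grouped by the *MYCN* status in the labels. Reads, sequenced from both ends, were aligned to GRCh37 by the authors using Bowtie 0.12.7, and MACS called the peaks of each line. Options, the treatment of reads with several matches and an input control are not given in the sources used here. The deposited lists give each peak's position and a score of the authors, the MACS p-value on a logarithmic scale, with 50, the lowest in each list, standing for 1e-05.

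GENCODE release 44, lifted to GRCh37, gave canonical TSS and first exons. The annotated TSS of *PCDHA7* is its first coding base. A peak had to overlap a region by 1 bp. Each gene was tested by *MYCN* status with two-sided Fisher's exact tests (presence) and two-sided exact permutation tests of means (cover), adjusted by Benjamini-Hochberg over all protein-coding genes tested. CpG and 45 bp windows were read from GRCh37. Python 3.11.15, numpy 2.4.6, scipy 1.17.1, pandas 2.3.3, numba 0.67.0 and pysam 0.24.0 were used. Only the separation of groups by presence and Fisher's exact test were tried on simulated presence calls, and the other steps were not.

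The genes, lists and tests were chosen with earlier results of these data known. Named in full were the C-type genes, genes with first-exon peaks in 8, 1 or 0 lines or promoter peaks in at least 6 or 0 lines, genes separating the groups, *PCDHA6* and the 3 highest scores, with ranges for large sets. Other genes, the stretches printed and those from +200 to +499 and +1500 to +1799, and the exclusion of peaks on a neighbouring first exon were chosen after seeing the values. The alternatives tried were a minimum score of 100, equal list lengths, other overlaps, windows and TSS, and each line left out in turn.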

Additional observations from a re-analysis of the deposited data

Results flagged for a closer look

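In each subfamily and *MYCN* group of 4 lines, the lowest or highest line was compared with the others, as its distance to the nearest line over the whole range. This ratio exceeded Dixon’s critical value in 6 of 36 groups of values, and chance flags about 1 in 20. Of the 6, 5 are counts in which the other 3 lines were equal, so that a difference of 1 or 2 genes gives a ratio of 1. Among the MNA lines, CHP-902R had 0 C-type *PCDHA* genes with a promoter peak and the others 2 each. Among the single copy lines, SJNB-1 had 1 C-type *PCDHA* gene with a first-exon peak (others 2), CLB-GA had 2 *PCDHGB* genes with a promoter peak (others 1), SK-N-AS had 4 *PCDHGB* genes with a first-exon peak (others 6), and SH-SY5Y had 3 C-type *PCDHG* genes with a first-exon peak (others 2). In N206, 46.9% of the first-exon bases of the *PCDHGB* genes were under peaks, against 34.1%, 34.3% and 35.6% in the other MNA lines, a ratio of 0.880. N206 was the line with the *PCDHGB2* peak, and in *PCDHGB7* its cover was 85.7%.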

How the results depend on the processing

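Of the recomputed values, 22 moved by more than the spread between lines or over 1.5 times the count, most of them for the promoter window, and 108 did not. These numbers include the 7 lines without CHP-902R under 2 settings, by themselves and among the lines left out in turn. The mean number of genes with a promoter peak per line, 15.2, became 8.75 with scores of at least 100, 5.5 by peak midpoint, 9.12 with a window to 500 bp downstream and 3.25 with a window from 500 bp upstream to the TSS. Genes with a promoter peak in at least 1 line, 34, became 21 by midpoint and 15 in the last window. The number in all 8 lines, 1, became 0 with scores of at least 100, with equal list lengths, by midpoint, with 200 bp of overlap, in the last window and without peaks on a neighbouring first exon, and 3 with every annotated TSS. With scores of at least 100, the mean number of genes with a first-exon peak, 32.0, became 20, the number in all 8 lines, 22, became 9, and mean cover fell from 44.7% to 29.3%. Genes whose promoter peak separated the *MYCN* groups, 0, became 1 by midpoint (*PCDHGC4*) and 1 in the 7 lines without CHP-902R (*PCDHAC1*). With each line left out in turn, this number ran from 0 to 1 (1 without CHP-902R, *PCDHAC1*, and without SH-SY5Y, *PCDHGC4*) and that for the first exon from 0 to 1 (1 without SH-SY5Y, *PCDHGC4*). The MNA minus single copy difference in the mean number of genes ran from -0.25 to 2.75 for the promoter, beyond its pooled SD of 1.99 without CLB-GA, and from -1.08 to 1.25 for the first exon. Promoter peaks in at least 1 line ran from 32 to 34 genes and in all remaining lines from 1 to 2, and first-exon peaks from 35 to 36 and from 22 to 26. The cause of these moves was not tested. No paired analysis was possible because no label gives replicate numbers that tie lines of both groups. The depth of each line was not compared. Reads with several matches may limit *PCDHA6* to *PCDHA9* most, the genes with the lowest shares of unique single 45 bp windows.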

Other observations

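The constant exons were not counted for any gene. The short constant exons, exons 2 and 3 of both clusters, had a peak in 0 lines. The last *PCDHA* constant exon, chr5:140389212-140391932, had a peak in IMR-32 and CLB-GA, and the last *PCDHG* constant exon, chr5:140890514-140892542, in all lines but IMR-32, 7 lines in all.

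Of 20 genes known for the choice and silencing of clustered protocadherin promoters, 6 had a promoter peak in at least 1 line and 0 in all 8. *DNMT3A*, a de novo DNA methyltransferase, had one in 5 lines and *SETDB1*, a histone H3 methyltransferase, in 4. Of 15 partners of the protocadherin cytoplasmic and membrane parts, 6 had a promoter peak in at least 1 line, among them *BRK1*, a subunit of the WAVE actin regulator, in 8 lines and *PTK2B*, a focal adhesion kinase, in 6. Of 12 non-clustered protocadherins, 5 had one in at least 1 line, with *PCDH17* in 6 and *PCDH8* in 4 lines. Of 16 neighbours on the same chromosome band, 8 did, with *DND1* in 7 and *SLC25A2* in 5 lines. Over all protein-coding genes this share was 48.9%. In these 4 lists 0 genes had a promoter peak that separated the *MYCN* groups.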
